A study of Mus musculus with 6 samples.

Results

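The genes described here are 5 autosomal retrogenes of the mouse testis, Pdha2, Utp14b, Cetn1, Cstf2t and Rbmxl2, and the 5 X-linked parent genes they were copied from, Pdha1, Utp14a, Cetn2, Cstf2 and Rbmx. A gene was included when the RefSeq accession of an mRNA probe mapped to it, which gave 10 of the 19049 genes with an mRNA probe and 11 of the 22464 mRNA probes, since Utp14b had an additional probe. Whole testes of male C57/BL6 mice were profiled in neonatal (6-day-old) mice and, for comparison, at 8 weeks (adult), on a 1-colour array of lncRNAs and mRNAs. The authors split the mice of each age, more of them neonatal than adult, into 3 groups as replicates. A replicate is thus a pool and not an animal, and the pools of the ages differ in size. The labels name no allele or treatment for either age.

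Retrogenes arise when an mRNA is reverse transcribed and inserted elsewhere in the genome, so the copy usually lacks introns and leaves the chromosome of its parent. During male meiosis the X chromosome is condensed and transcriptionally silenced, and many X-linked housekeeping genes have an autosomal copy that is transcribed in spermatocytes or spermatids. The neonatal testis holds spermatogonia and somatic cells but no meiotic cells, whereas the adult testis holds germ cells of every stage.

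Levels are given as log2 of the signal relative to the 75th percentile of the array, with a common floor at −7.23, and changes are adult minus neonatal. The arrays came from 2 scans, with replicates 1 and 2 of both ages in scan 1 and replicate 3 of both ages in scan 2. Outlier-flagged spots were most frequent in scan 2, where they made up 40.6% of the mRNA probes of neonatal replicate 3 and 31.9% of adult replicate 3, against 7.61% to 14.2% on the other arrays. For Cetn1, Cetn2, Cstf2t, Cstf2, Rbmxl2 and Pdha1 the fit therefore rests on replicates 1 and 2, and for Utp14b on replicates 2 and 3. Only Rbmx was fitted on all 6 arrays.

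Retrogenes and parents moved in opposite directions between the ages. All 4 retrogenes that could be tested rose in adult testis and 1 was called up-regulated (adjusted p at most 0.05 and at least 5-fold). Of the 15121 tested mRNA probes, 29.7% rose and 12.6% were called up-regulated. The called retrogene, Cetn1, entered the test only through the adult arrays and so could only rise. The count of retrogenes that rose depended on the setting. It was 3 of 4 after quantile normalization and 2 of 4 in the authors' values. When probes below background on every array were also fitted, it was 2 of 5. All 4 parents that could be tested fell and 1 was called down-regulated, where 45.8% of the tested mRNA probes fell and 13.7% were called down-regulated. The parents are X-linked, and of the 602 tested X-linked mRNA probes 70.6% fell and 31.1% were called down-regulated. The median log2 change was 1.36 for the tested retrogenes, −2.20 for the tested parents and −0.40 for all tested mRNA probes. Pdha2 was below background at both ages, and Utp14a kept only 1 replicate with unflagged spots at both ages. With outlier-flagged spots kept, all 5 parents fell and 4 of 4 tested retrogenes rose, where 49.5% of 19310 tested mRNA probes fell and 29.8% rose. In bulk tissue, fewer cells of a type and less RNA per cell cannot be told apart.

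The balance of changes over all mRNAs depended on scaling and background correction, which bears on the smaller changes of the members. The median log2 change of all mRNA probes was −0.64 after quantile normalization, −0.65 after shifting each array to its median, −0.71 in the authors' values and 0.02 after normexp background correction. Of the mRNA probes that passed the test, 39.4% rose, and after normexp correction 51.2% did, with 6128 that rose and 5852 that fell. Under all of these scalings Cstf2t, Rbmxl2 and Utp14b kept a positive change, as did Cetn1, which could only rise. Pdha1, Cetn2, Cstf2 and Rbmx kept a negative change. The calls moved, however. Of 4 retrogenes, 3 passed after quantile normalization, 3 after the shift to the array median and 2 in the authors' values. In each of these settings 3 parents were called down-regulated.

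**Figure D1:**
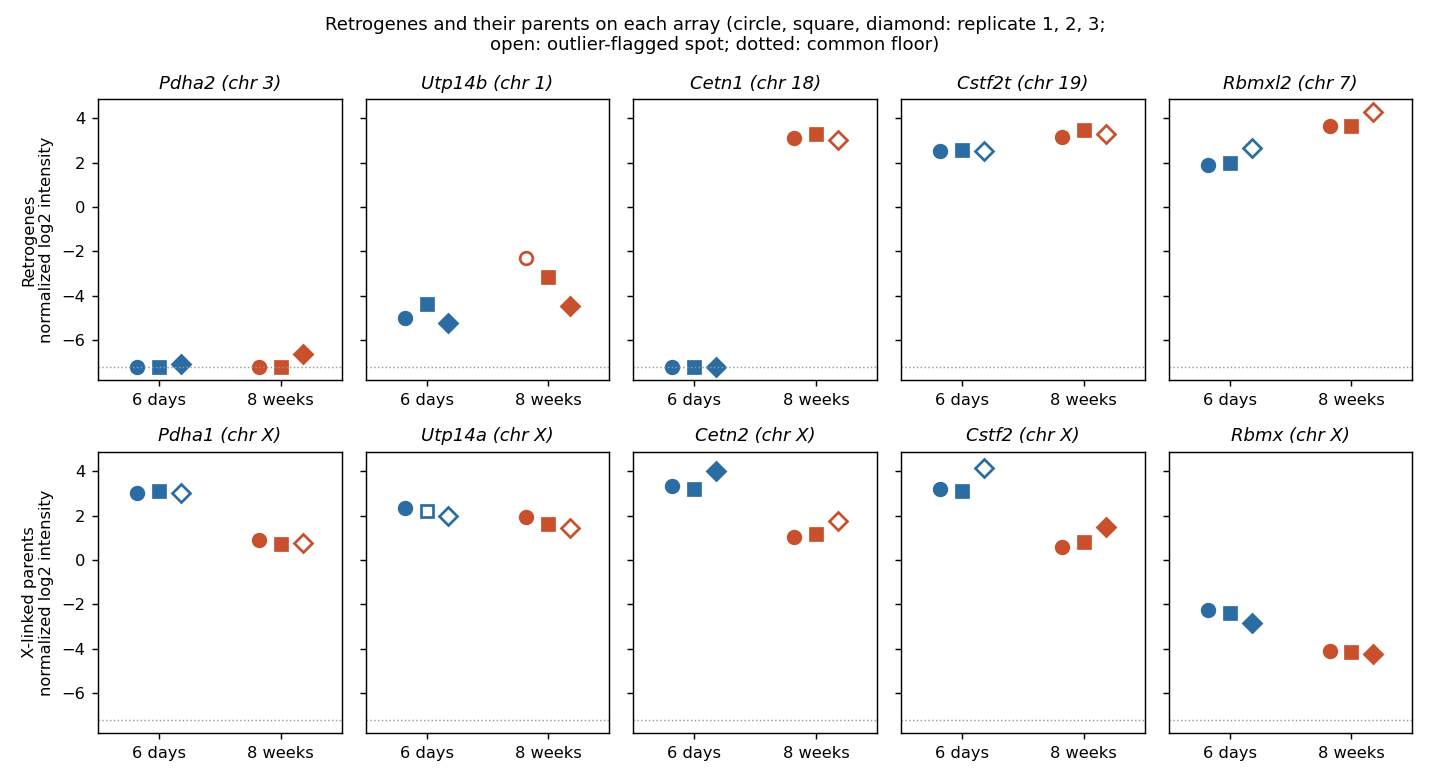
Levels of the 10 members on each of the 6 arrays, Utp14b by its probe with the higher mean, as log2 of the signal relative to the 75th percentile of the array. Each retrogene is drawn above its parent, open symbols are outlier-flagged spots, and the levels of different probes are not comparable.

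Pdha1 encodes the E1 alpha subunit of pyruvate dehydrogenase, which links glycolysis to the citric acid cycle, and Pdha2 encodes its testis isoform. The level of Pdha1 was 3.03, 3.12 and 3.00 (outlier-flagged) across neonatal replicates 1, 2 and 3, and 0.91, 0.73 and 0.75 (outlier-flagged) across the adult replicates. Every adult level lay below every neonatal level. Pdha1 fell 4.76-fold (log2 change −2.25, SE 0.16, adjusted p 0.00177), which is below the 5-fold limit for a call. Its log2 change was past that limit after quantile normalization (−2.56), after the shift to the array median (−2.51) and in the authors' values (−2.52). The probe of Pdha2 read −7.23, −7.23 and −7.08 in neonatal testis and −7.23, −7.23 and −6.61 in adult testis. All of these values were at or near background, although none of its spots was outlier-flagged, so no change is given for Pdha2.

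Utp14a and Utp14b encode nucleolar proteins of the small-subunit processome, which processes the 18S ribosomal RNA, and loss of Utp14b is known to block the differentiation of spermatogonia in the mouse. The Utp14b probe with the higher mean read −5.01, −4.39 and −5.22 across neonatal replicates 1, 2 and 3, and −2.28 (outlier-flagged), −3.17 and −4.45 across the adult replicates. Each adult array was above its neonatal counterpart, by 2.73, 1.22 and 0.76, yet the ages overlapped, because adult replicate 3 lay just below neonatal replicate 2. On replicates 2 and 3 this probe rose 1.99-fold (log2 change 0.99, SE 0.19, adjusted p 0.0193), and with the outlier-flagged spot kept the log2 change was 1.57 (SE 0.42, adjusted p 0.0255). This change did not pass in 10 of 20 alternatives, among them the authors' values (log2 change 0.76, adjusted p 0.0554), no filter on dim probes (adjusted p 0.119) and the fit without replicate 1 (adjusted p 0.0528). The other Utp14b probe read −5.20, −5.28 and −5.79 in neonatal testis and −3.11 (outlier-flagged), −4.30 and −5.83 in adult testis. Its replicate 3 did not differ between the ages, and its log2 change of 0.47 (SE 0.32, adjusted p 0.269) did not pass the test, although it did after normexp correction (log2 change 0.60, adjusted p 0.0345).

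The level of Utp14a was 2.34, 2.19 and 2.00 across neonatal replicates 1, 2 and 3, and 1.95, 1.62 and 1.44 across the adult replicates, and the spots of neonatal replicates 2 and 3 and adult replicate 3 were outlier-flagged. The adult level was the lower in each replicate, by 0.39, 0.57 and 0.55, and the ages did not overlap. With outlier-flagged spots kept, Utp14a fell 1.42-fold (log2 change −0.51, SE 0.12, adjusted p 0.0152), the smallest change among the parents, but it did not pass without replicate 2 (adjusted p 0.0774) or replicate 3 (adjusted p 0.0508).

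Cetn2 encodes centrin-2, a calcium-binding protein of centrioles that also takes part in nucleotide excision repair, and Cetn1 encodes the centrin-1 of male germ cells. Cetn1 read −7.23 on each neonatal array and 3.13, 3.28 and 3.05 (outlier-flagged) across the adult replicates. It was well above background on every adult array and on no neonatal array. Cetn1 rose at least 1295-fold (adjusted p 1.35e-04), where the bound sets the mean of the unflagged adult levels against the mean of the lowest levels that counted as well above background on the neonatal arrays, or the floor where that was higher. With the outlier-flagged adult spot included the bound was 1250.1-fold. Cetn1 was the only retrogene called up-regulated, but it entered the test only through the adult arrays and so could only rise.

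The level of Cetn2 was 3.32, 3.21 and 4.00 across neonatal replicates 1, 2 and 3, and 1.04, 1.19 and 1.77 (outlier-flagged) across the adult replicates. Replicate 3 was the highest at each age, and the ages did not overlap. Cetn2 fell 4.44-fold (log2 change −2.15, SE 0.16, adjusted p 0.00197).

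Cstf2 encodes the RNA-binding subunit of cleavage stimulation factor, which directs the 3′ end processing of mRNAs, and Cstf2t encodes the form made in meiotic and postmeiotic germ cells. The level of Cstf2t was 2.52, 2.57 and 2.52 (outlier-flagged) across neonatal replicates 1, 2 and 3, and 3.17, 3.47 and 3.29 (outlier-flagged) across the adult replicates. All adult levels were above all neonatal levels, although Cstf2t was already well above background in neonatal testis. Cstf2t rose 1.71-fold (log2 change 0.77, SE 0.16, adjusted p 0.0221), and this change did not pass the test under quantile normalization (log2 change 0.44, adjusted p 0.0758), the shift to the array median (log2 change 0.51, adjusted p 0.0743) or in the authors' values (log2 change 0.51, adjusted p 0.0990). The level of Cstf2 was 3.18, 3.11 and 4.13 (outlier-flagged) across neonatal replicates 1, 2 and 3, and 0.58, 0.80 and 1.49 across the adult replicates. The adult levels were all below the neonatal levels, with replicate 3 again the highest at each age. Cstf2 fell 5.47-fold (log2 change −2.45, SE 0.16, adjusted p 0.00157) and was the only parent called down-regulated. After quantile normalization, after the shift to the array median and in the authors' values, 3 parents were called.

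Rbmx encodes the nuclear ribonucleoprotein hnRNP G, which takes part in splicing, and Rbmxl2 encodes the germ cell form hnRNP G-T. The level of Rbmxl2 was 1.89, 2.01 and 2.67 (outlier-flagged) across neonatal replicates 1, 2 and 3, and 3.67, 3.67 and 4.28 (outlier-flagged) across the adult replicates. The ages did not overlap, and replicate 3 was the highest at each age. Rbmxl2 rose 3.30-fold (log2 change 1.72, SE 0.14, adjusted p 0.00256). The level of Rbmx was −2.26, −2.38 and −2.83 across neonatal replicates 1, 2 and 3, and −4.10, −4.15 and −4.26 across the adult replicates. Here replicate 3 was the lowest at each age, and all adult levels were below all neonatal levels. Rbmx fell 3.21-fold (log2 change −1.68, SE 0.13, adjusted p 8.16e-04).

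Because the 2 genes of a pair were read on the same arrays, the change of a retrogene minus the change of its parent does not depend on the scaling constant of the array. This difference was computed for each replicate with outlier-flagged spots kept. For Utp14b and Utp14a it was 3.13, 1.79 and 1.32 (mean 2.08, SD 0.94, n = 3, 4.23-fold, exact permutation p = 0.10). The spread was the widest of the 4 pairs, with the largest value in replicate 1, which holds the outlier-flagged adult spot of Utp14b. For Cetn1 and Cetn2 it was at least 12.36, 12.52 and 12.51 (mean 12.46, SD 0.09, n = 3, exact permutation p = 0.10). Here the neonatal levels of Cetn1 were set to the bound, so Cetn1 could only rise. The p of this pair is therefore no test of its direction, and the SD holds no neonatal spread of Cetn1. For Cstf2t and Cstf2 it was 3.24, 3.20 and 3.42 (mean 3.29, SD 0.11, n = 3, 9.77-fold, exact permutation p = 0.10). For Rbmxl2 and Rbmx it was 3.62, 3.43 and 3.04 (mean 3.36, SD 0.30, n = 3, 10.3-fold, exact permutation p = 0.10). The means of the Cstf2t and Rbmxl2 pairs differed by less than the SD of the latter. A p of 0.10 is the smallest this test can give with 3 arrays at each age.

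In all 4 pairs the difference was positive in each replicate, and the within-array differences of the ages did not overlap. For the Cetn1 pair this was largely fixed in advance, since Cetn1 could only rise. With outlier-flagged spots left out, 2 replicates remained for the Cetn1 pair (mean 12.44), the Cstf2t pair (mean 3.22) and the Rbmxl2 pair (mean 3.53), and none for the Utp14b pair. For Cetn1 most of the difference lay in the retrogene, whereas for Cstf2t the fall of the parent Cstf2 was the larger component. For Rbmxl2 and Rbmx the log2 changes were 1.72 and −1.68, but 1.46 and −1.94 in the authors' values, and after normexp correction the change of Rbmx was −1.0 (adjusted p 0.0114).

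**Figure D2:**
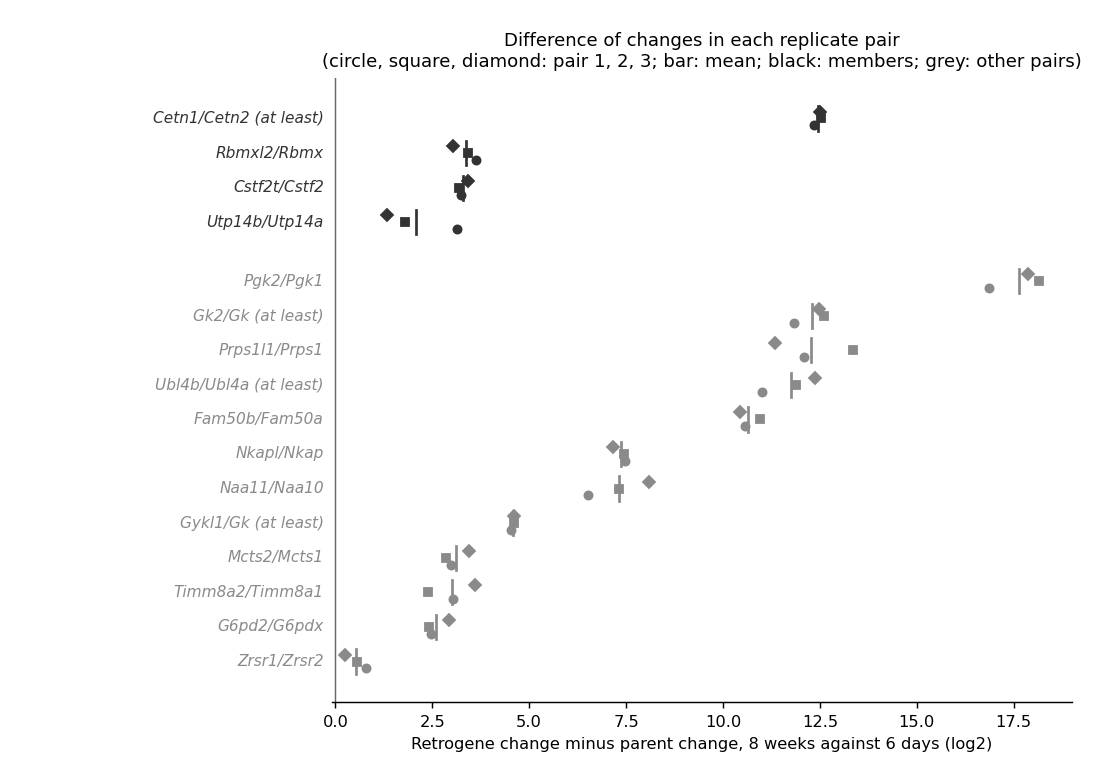
Change of each retrogene minus change of its parent in each replicate, for the members and for the other X-derived retrogenes, on a log2 scale with outlier-flagged spots kept. Symbols tell the replicates apart, and values of pairs whose retrogene was below background on every neonatal array are lower bounds. Those of Pgk2, Prps1l1 and Zrsr1 rest partly on spots not well above background.

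Both scans hold both ages. Within scan 1, on replicates 1 and 2, which are also the basis of the fit above for all but Rbmx, the log2 change was at least 10.29 for Cetn1 (adjusted p 0.00331), 0.77 for Cstf2t (adjusted p 0.0292) and 1.72 for Rbmxl2 (adjusted p 0.00694). The parents changed by −2.25 for Pdha1 (adjusted p 0.00708), −2.15 for Cetn2 (adjusted p 0.00744), −2.45 for Cstf2 (adjusted p 0.00695) and −1.80 for Rbmx (adjusted p 0.00620). In scan 2, which has 1 array of each age and allows no test, the changes with outlier-flagged spots kept were 0.76 for Utp14b, 0.77 for Cstf2t, 1.60 for Rbmxl2, −2.25 for Pdha1, −0.55 for Utp14a, −2.23 for Cetn2, −2.64 for Cstf2 and −1.43 for Rbmx. Each of these 8 genes thus had the same sign in both scans, whereas the other Utp14b probe changed by 2.09 and 0.98 in scan 1 and by −0.04 in scan 2. With the scan as the block in place of the replicate number, all 4 retrogenes rose and all 4 parents fell, and the log2 change of Utp14b was 1.20 (adjusted p 0.0248). Without a replicate block the log2 change of Utp14b was 1.06 and did not pass the test (adjusted p 0.112), and every other tested member stayed on its side of the test. By the 5-fold limit, however, Cetn2 (log2 change −2.39) was then called down-regulated and Cstf2 (log2 change −2.19) was not.

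Markers of spermatocytes and spermatids moved with the retrogenes, and those of spermatogonia with the parents. For each marker list the gene with the brightest probe by mean signal over the 6 arrays is named. The sums keep outlier-flagged spots. The summed signal of 7 of 7 spermatid markers, with Prm2 the brightest, was 0.670, 0.714 and 0.830 times the 75th percentile across neonatal replicates 1, 2 and 3, and 1061, 1232 and 1457 times across the adult replicates. The sum of 7 of 7 spermatocyte markers, with Hspa2 the brightest, was 25.3, 21.9 and 31.8 in neonatal testis and 167, 178 and 229 in adult testis. Both sums were higher on every adult array, although Sycp3 and Ldhc of the spermatocyte list overlapped between the ages, as were the levels of Cetn1, Cstf2t and Rbmxl2. The sum of 8 of 8 spermatogonial markers, with Uchl1 the brightest and Gfra1 below background on every array, was 106, 114 and 98.7 in neonatal testis and 23.0, 24.0 and 18.2 in adult testis. This sum was lower on every adult array, as were the levels of all 5 parents, although Id4 of the list rose (log2 change 2.75, adjusted p 0.00150) and Nanos3 did not pass the test (log2 change −0.26, adjusted p 0.325).

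Somatic markers moved as well. The sum of 6 of 7 Sertoli cell markers was 69.4, 71.1 and 49.3 in neonatal testis and 17.3, 13.0 and 11.7 in adult testis, with Wt1 the brightest, Amh not well above background on every array and no probe for Rhox5. The sum of 6 of 6 Leydig cell markers, with Insl3 the brightest, was 26.5, 28.3 and 25.2 in neonatal testis and 81.1, 67.2 and 62.6 in adult testis. Thus the Sertoli sum was lower and the Leydig sum higher on every adult array, although Hsd3b1 of the Leydig list fell (log2 change −1.04, adjusted p 0.00998). Cldn11 of the Sertoli list and Cyp17a1 of the Leydig list overlapped between the ages. The sum of 4 of 4 peritubular markers, with Myh11 the brightest and Cnn1 below background on every array, was 21.7, 21.9 and 27.0 in neonatal testis and 4.77, 4.33 and 6.54 in adult testis. For 3 of 3 endothelial markers, with Cdh5 the brightest, the sum was 6.54, 7.54 and 13.0 in neonatal testis and 1.55, 1.21 and 2.31 in adult testis. Peritubular and endothelial sums were thus lower on every adult array, like the parents. For 3 of 4 macrophage markers, with Csf1r the brightest and without a probe for Cd68, the sum was 2.96, 2.91 and 2.80 against 1.88, 1.94 and 2.44. For 2 of 3 erythroid markers, with Hba-a1 the brightest and without a probe for Hbb-b1, it was 4.66, 5.96 and 2.26 against 2.71, 2.52 and 2.05, with overlap between the ages. The 2 erythroid genes moved apart, since Alas2 rose (log2 change 1.99, adjusted p 0.00547) and Hba-a1 was lower on every adult array. The part of these cell types in the changes of the retrogenes and parents was not tested.

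The parents were not alone on the X chromosome in being lower in adult testis. Of 602 tested X-linked mRNA probes, 425 (70.6%) fell and 106 (17.6%) rose, with a median log2 change of −1.71, while 44.9% of 14161 tested autosomal mRNA probes fell and 30.1% rose, with a median of −0.36. The change of Rbmx lay near the middle of the X-linked probes, 50.7% of which had a lower value, and 37.4% were lower than Cetn2, 33.4% lower than Pdha1 and 27.6% lower than Cstf2. The parents thus lay well inside the range of X-linked genes.

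**Figure D3:**
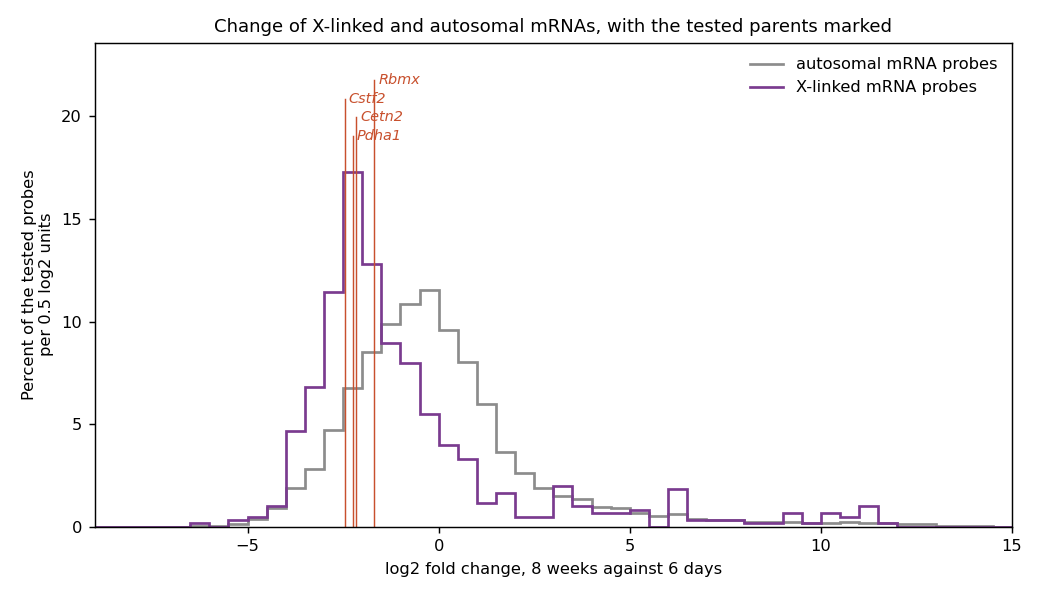
Distribution of the log2 change of tested X-linked and autosomal mRNA probes, with the 4 tested parents marked. A negative value is a lower level in adult testis.

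In a list of 14 other retrogenes with X-linked parents, most retrogenes rose and most parents fell. Of 10 retrogenes tested in this list, 8 rose, 1 fell and 1 did not pass, with a median log2 change of 6.70 with below-background levels set to the floor, where 29.7% of all tested mRNA probes rose. This count and median rest partly on Gk2, Gykl1 and Ubl4b, which were well above background on adult arrays only. These genes entered the test through the adult arrays and could only rise. Of 10 parents tested, 9 fell and 1 rose, with a median of −1.94, where 45.8% of all tested mRNA probes fell. These parents are X-linked, and 70.6% of the tested X-linked mRNA probes fell, with a median of −1.71. Pgk2, the phosphoglycerate kinase of spermatids and sperm, read −6.54, −6.44 and −7.23 in neonatal testis and 6.73, 6.77 and 6.88 (outlier-flagged) in adult testis. It was well above background on 1 neonatal array and on all adult arrays, so that its log2 change of 13.24 (adjusted p 1.21e-04) rests partly on neonatal spots at the floor or below background. Gk2 rose at least 8599-fold, Ubl4b at least 1895-fold and Gykl1 at least 42.5-fold, and Prps1l1, Fam50b and Nkapl rose by log2 changes of 10.09, 7.90 and 5.15. The change of Prps1l1 is approximate, since it was well above background on 2 of 3 neonatal arrays. G6pd2 rose by 0.50, Timm8a2 did not pass (0.33, adjusted p 0.234), and Zrsr1 fell by 0.60 (adjusted p 0.00680). Naa11 and Mcts2 were tested only with outlier-flagged spots kept, with log2 changes of 4.20 and 1.05. No probe matched Rpl10l or Rps4l.

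Among the parents of these retrogenes, Naa10, Fam50a and Timm8a1 were called down-regulated, with log2 changes of −3.11, −2.90 and −2.55. Nkap (−2.31), Mcts1 (−1.98), G6pdx (−1.90), Rpl10 (−1.68), Zrsr2 (−1.13) and Ubl4a (−0.59) fell by less. Gk alone rose, by 0.67 and 0.74 on its 2 probes. With outlier-flagged spots kept, the log2 changes of Pgk1, Rps4x and Prps1 were −4.10, −3.16 and −2.57. Pgk1 and Zrsr2 were well above background on 2 of 3 adult arrays. The retrogene change exceeded the parent change in each replicate for all 12 pairs with a value, with a median difference of at least 7.33, beside 3.33 for the 4 member pairs. This count and median include Gk2, Gykl1 and Ubl4b, and those of the member pairs include Cetn1. The retrogene part of these differences could only be a rise. The difference was at least 12.30 for Gk2, at least 11.76 for Ubl4b, 10.65 for Fam50b, 7.36 for Nkapl, 7.31 for Naa11, at least 4.58 for Gykl1, 3.10 for Mcts2, 3.00 for Timm8a2, 2.60 for G6pd2 and 0.53 for Zrsr1. The values for Pgk2 (17.63) and Prps1l1 (12.26) are approximate, since only 1 and 2 of the 3 neonatal spots of these retrogenes were well above background. The value for Zrsr1 is approximate because of the adult spots of Zrsr2. Only for Zrsr1 did the arrays of the ages overlap (exact permutation p = 0.30). This permutation does not keep the arrays of a scan together, and by replicate number 1, 2 and 3 the Zrsr1 difference was 0.79, 0.56 and 0.24. The member pairs of Cstf2t, Rbmxl2 and Utp14b thus had differences of 2.08 to 3.36, near those of Mcts2, Timm8a2 and G6pd2.

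Except for the small-subunit processome, each list of genes that work with the members held genes that rose and genes that fell, and their counts stand beside 29.7% of all tested mRNA probes that rose and 45.8% that fell. Around Pdha1, 3 of 8 tested genes of the pyruvate dehydrogenase complex and its regulators rose, namely Pdk2 (3.04, called up-regulated), Pdpr (2.48, called up-regulated) and Pdhb (0.62). Another 3 fell, namely Pdk3 (−2.07), Pdp2 (−1.97) and Pdk1 (−1.58), while Pdhx and Pdk4 did not pass and 3 genes kept too few unflagged spots. Of these 3, Pdp1 fell on its 2 other probes (−1.63 and −1.58), and with outlier-flagged spots kept Dlat (1.92) and Dld (0.61) rose, for 5 of 11 that rose and 4 that fell. The E1 beta subunit Pdhb thus rose where its X-linked partner subunit Pdha1 fell, although its change was the smallest of the 3 that rose. After quantile normalization, after the shift to the array median and in the authors' values, 2 of 8 genes of this list rose. Of 23 genes of the small-subunit processome with a probe, 11 could be tested and 8 of these fell and none rose. The largest falls were those of Utp20 (−3.31), Nop56 (−2.97) and Utp3 (−2.73), all called down-regulated, and the median was −1.26. In the fit that kept outlier-flagged spots, 17 of 23 fell and 1, Nop14, rose.

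Around Cetn1 and Cetn2, the related centrin Cetn3 (1.15) and the centriole protein Poc5 (0.73) rose, and Xpc (−1.84), which binds centrin-2 in DNA repair, fell like Cetn2. Sfi1 and Rad23b did not pass, and Cetn4, tested only with outlier-flagged spots kept, rose by 6.40, a setting in which 3 of 7 genes of this list rose and 2 fell. Of 10 tested genes of cleavage and polyadenylation, Cstf1 (1.44) and Sympk (1.15) rose and Cpsf2 (−1.17), Cpsf6 (−0.80), Cpsf3 (−0.75) and Fip1l1 (−0.55) fell, so Cstf1 moved with Cstf2t and against Cstf2. The probes of Cstf3, the remaining subunit of cleavage stimulation factor, differed, with 2 that fell (−3.22 and −2.15) and 1 with a log2 change of 0.49 when outlier-flagged spots were kept. In that setting 7 of 18 genes of this list rose and 7 fell, with the largest changes in Papolb (8.90), the poly(A) polymerase of the testis, and Cpsf7 (−3.02). Among relatives and splicing partners of Rbmx, Khdrbs3 (2.24) rose and Khdrbs2 (−2.48, called down-regulated), Rbmxl1 (−1.09) and Khdrbs1 (−0.83) fell, while Tra2a did not pass. With outlier-flagged spots kept, 5 of 7 fell and 1 rose, Rbmy (−2.68) and Tra2b (−1.71) being among those that fell.

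Utp14b and Cstf2t each lie within another gene, Utp14b within Acsl3 and Cstf2t within Prkg1. Acsl3 did not pass the test on any of its 3 probes (log2 changes 0.21, 0.10 and 0.35), and neither did Prkg1 (−0.82, adjusted p 0.0525, with its other probe below background on every array). With outlier-flagged spots kept, Prkg1 passed (−0.82, adjusted p 0.0487). The changes of the retrogenes were not tested against those of their host genes.

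The probes whose pattern was most like that of a member were ranked by the root mean square difference of centred log2 levels over 5 arrays. For Cetn1 they were a probe with no matched gene (0.06), Pfn3 (0.06) and BC048562 (0.07) among 6055 candidates, where the 3 neonatal levels of Cetn1 lie at the floor. For the Utp14b probe that did not pass the test they were Marchf1 (0.13), Ldhd (0.14) and Wrn (0.16) among 4508. For Cetn2 they were Mex3d (0.05), Slc7a2 (0.06) and Ankrd6 (0.06) among 5088, and for Cstf2 they were Arhgef19 (0.03), Dsel (0.04) and Bclaf3 (0.05) among 6607. For Rbmx they were 2 probes with no matched gene (0.07 and 0.08) and Aph1a (0.08) among 7353. Cstf2t, Rbmxl2, Pdha1 and Utp14a had fewer than 5 unflagged arrays, so no neighbours are given for them.

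Promoter sequences of 9 of the 10 members were found in a RefSeq table of 32851 promoters (build GRCm38.p6), and Cetn1 had no entry. Over the 250 bases before the start, the G+C content was 31.6% for Pdha2, 77.2% for Utp14b, 54.4% for Cstf2t and 70.0% for Rbmxl2, against a median of 52.4% over all promoters. The parents ranged from 46.8% for Rbmx to 61.6% for Pdha1. The ratio of observed to expected CpG was above the median of 0.374 for all 9 members, highest for Utp14b (1.06) and Cstf2t (1.03) and lowest for Pdha2 (0.642). The promoter of Pdha2 held 4 CpG and that of Utp14b 37, so the retrogenes differed among themselves more than the parents did.

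Exact matches to TGACGTCA (and to its part TGACG), to GGGCGG, to CCAAT and to TATAAA were searched on both strands of these 250 bases, and any TGACGTCA also counts as TGACG. TGACGTCA was found in none of the 9 member promoters and in 1.55% of all promoters. TGACG was found in Utp14a, Cetn2 and Cstf2, all of them parents, and in 17.8% of all promoters. GGGCGG was found in Cstf2t, Rbmxl2, Utp14a, Cetn2 and Cstf2 and in 32.7% of all promoters. CCAAT was found in Cstf2t, Rbmxl2, Utp14a, Cetn2 and Rbmx and in 33.8% of all promoters. TATAAA was found in Pdha2 alone and in 12.4% of all promoters. Utp14b and Pdha1 held none of the 5 motifs.

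The RefSeq promoters of the pairs Cstf2t and Cstf2 and Rbmxl2 and Rbmx are printed to let a reader compare each retrogene with its parent, since these are the pairs in which both genes were well above background on every array and passed the test in opposite directions. They are from build GRCm38.p6, at chr19:31082591-31082840 (plus strand) for Cstf2t, chrX:134058926-134059175 (plus strand) for Cstf2, chr7:107209195-107209444 (plus strand) for Rbmxl2 and chrX:57393037-57393286 (minus strand) for Rbmx. Each runs 5′ to 3′ on the strand of the gene, and capitals mark matches of the motifs on either strand. Cstf2t and Rbmxl2 each hold 1 GGGCGG and 1 CCAAT, Cstf2 holds 2 TGACG and 1 GGGCGG, and Rbmx holds 1 CCAAT.
Cstf2t: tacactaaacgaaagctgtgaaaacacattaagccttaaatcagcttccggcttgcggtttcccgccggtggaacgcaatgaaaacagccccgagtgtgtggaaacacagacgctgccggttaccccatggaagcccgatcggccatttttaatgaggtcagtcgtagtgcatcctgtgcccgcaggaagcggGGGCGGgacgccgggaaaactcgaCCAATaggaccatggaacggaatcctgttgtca
Cstf2: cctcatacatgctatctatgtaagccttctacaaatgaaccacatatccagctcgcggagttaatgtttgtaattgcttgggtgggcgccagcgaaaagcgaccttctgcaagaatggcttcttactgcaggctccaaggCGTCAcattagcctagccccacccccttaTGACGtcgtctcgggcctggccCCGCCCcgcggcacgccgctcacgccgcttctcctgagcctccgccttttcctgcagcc
Rbmxl2: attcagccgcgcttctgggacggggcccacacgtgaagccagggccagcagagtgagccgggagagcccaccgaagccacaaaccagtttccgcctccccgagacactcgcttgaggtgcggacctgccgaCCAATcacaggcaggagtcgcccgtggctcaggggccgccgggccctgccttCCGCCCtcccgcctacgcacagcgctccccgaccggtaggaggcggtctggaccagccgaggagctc
Rbmx: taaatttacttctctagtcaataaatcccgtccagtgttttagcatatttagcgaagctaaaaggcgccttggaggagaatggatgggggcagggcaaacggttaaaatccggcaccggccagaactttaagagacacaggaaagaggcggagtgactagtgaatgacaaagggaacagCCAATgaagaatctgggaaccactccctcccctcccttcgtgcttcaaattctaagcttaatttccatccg

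These values have limits. Each age had 3 pools, and replicate 3 lost many spots to outlier flags, so most members were tested on 2 replicates. The sequences of the probes were not among the files, so whether a probe also reads the mRNA of the related gene was not tested. Pdha2 gave no measurement on these arrays. Array signals are relative, and levels of different members were not set against each other. The marker sums weigh each gene by the brightness of its probe. Age and cell composition changed together and cannot be told apart as sources of the changes of the retrogenes and parents.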

How the data were processed

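RNA from testes of male C57/BL6 mice, 3 pooled replicates at 6 days and 3 at 8 weeks, was measured by the authors on a 1-colour array, and the deposited scanner files hold background-subtracted signal intensity. The deposited series table holds log2 values in 26828 rows. In the 26771 rows that were compared, they equalled log2 of that intensity, floored at 5, minus a constant for each array, to within 0.001. Intensities were divided by the 75th percentile of the array (749.1 to 2954) and log2-transformed with a common floor of −7.23. From 73.9% to 78.5% of mRNA probes were well above background and no spot was saturated. Of 22464 mRNA probes, 21901 (97.5%) matched a RefSeq gene.

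Outlier-flagged spots were left out. Probes with at least 2 complete replicates and a signal well above background on 1 or more arrays were fitted with limma 3.58.1 (R 4.3.3) with the replicate as a block, Benjamini-Hochberg adjustment covered lncRNA and mRNA probes, and calls took an adjusted p at most 0.05 and a 5-fold change. All adjusted p-values are from this limma fit or, where the text names another setting, from the same fit under that setting. The replicate numbers were checked by correlating probes between ages after centring (r = 0.497, 0.429 and 0.777 for replicates 1 to 3, 0.508 and 0.470 for other numbers in the same scan, −0.690 to −0.556 between scans). Within scan 1, arrays of the same number were thus no more alike than arrays of other numbers, so the pairing by number there is arbitrary. Scans were told apart by scan time. Retrogene minus parent changes were tested by exact permutation over 6 arrays.

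All members, the other X-derived retrogenes, their parents and the host genes are named, and from each other list the 3 tested genes with the largest changes that passed, or all where 5 or fewer passed in a direction. Genes named beyond this rule were chosen after their values were seen. For each marker list the gene with the brightest probe and those not well above background are named, and for each member the 3 most similar probes. A gene of the centrin list and the probes most similar to the higher Utp14b probe are not reported here. A gene with several probes counts by the one with the highest mean. The members and lists were chosen with earlier results of these data known. Alternatives in floor, scaling, background, filter, flags, block, test and replicates were tried. Protein sequences were not compared because no protein table was given. Python 3.11.15 with numpy 2.4.6 and pandas 2.3.3 made the tables.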

Additional observations from a re-analysis of the deposited data

How the results depend on the processing

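Over 181 alternatives of 10 member results none reversed and 22 no longer passed the test, 10 of them for Utp14b and 6 for Cstf2t. Another 1 newly passed, for the other Utp14b probe after normexp correction. The 181 include 20 for Cetn1, which are lower bounds of a gene that could only rise and so could not reverse. Where a cause is not given below, the cause was not tested. Of 4 tested retrogenes, 2 rose in the authors' values, 2 of 5 without the filter on dim probes, 2 by the paired t-test unadjusted and 1 after Benjamini-Hochberg adjustment, under which 1 parent fell and 0 were called down-regulated. Called down-regulated were 3 parents after quantile normalization, 3 after the shift to the array median and 3 in the authors' values, settings that also lowered the median of all mRNA probes. By the adjusted paired t-test 2659 mRNA probes rose, 3305 fell, 1265 were called down-regulated and 234 X-linked probes fell, and after normexp correction 1037 were called down-regulated. Without the replicate block 3 retrogenes rose and 4 parents fell, with 4035 mRNA probes that rose and 6346 that fell. The difference for Cetn1 and Cetn2, a lower bound throughout, was at least 12.56 with no floor, with the signal floored before scaling, after the shift to the array median and in the authors' values, and at least 10.29 after normexp correction, which also gave 2.92 for Cstf2t and Cstf2 and 3.06 for Rbmxl2 and Rbmx.

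Over fits without a replicate, without an array and the replicate block, or without a replicate but with outlier-flagged spots kept, there were 0 to 4 retrogenes that rose, 0 to 1 called up-regulated, 1 to 5 parents that fell and 0 to 2 called down-regulated. Over all mRNA probes 1863 to 5346 rose, 2517 to 8625 fell, 847 to 2485 were called up-regulated and 921 to 3061 down-regulated, and 165 to 533 X-linked probes fell. The upper ends for mRNA probes come from the fits with outlier-flagged spots kept (19310 tested), and with only a replicate left out they were 4239, 6393, 1871 and 2025. The differences ranged from at least 12.17 to at least 12.73 for Cetn1, 1.56 to 2.54 for Utp14b, 2.95 to 3.56 for Cstf2t and 3.09 to 3.77 for Rbmxl2. Fewer probes were tested without replicate 1 (8230) or replicate 2 (8064), among them 1 and 0 retrogenes, because replicate 3 holds many outlier-flagged spots. A smaller share of those tested also passed, and the cause of that was not tested. With outlier-flagged spots kept and replicate 1, 2 or 3 left out, alternatives chosen after seeing the data, 4, 3 and 3 of 4 retrogenes rose and 5, 4 and 4 of 5 parents fell. Of the other retrogenes, 0 of 3, 0 of 3 and 7 of 10 tested rose without replicate 1, 2 or 3, and of their parents 4 of 6, 3 of 6 and 9 of 10 fell, against 9, 10 and 9 of 12 and 12, 11 and 12 of 13 with outlier-flagged spots kept. The alternatives for Utp14a, the X-linked counts, the other retrogenes and parents and the partner lists were also added after seeing the data, and Utp14a gave log2 changes of −0.56, −0.47 and −0.48 (adjusted p 0.0425, 0.0774 and 0.0508) without replicate 1, 2 or 3. In the 300 bases of the promoter table TGACG matched 4 members and TATAAA 2. The lowest signal well above background was 6.09 to 24.0, which limits Pdha2 and the neonatal level of Cetn1.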
